A study of Mus musculus with 15 samples.

Results

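This account describes what IL-12 did to the transcriptome of irradiated mouse bone marrow stromal cells when the cytokine was carried in a hydrogel that also held Laponite. It rests on 6 of the 15 RNA-seq libraries of the series, 3 labelled Gel/Laponite and 3 labelled Gel/Laponite@IL-12, and a gene counted as a member of the response when its level differed between the 2 groups. Of 15188 genes tested, 263 (1.73%) passed an adjusted p of 0.05. All cells were BM-MSCs, the mesenchymal stromal cells of bone marrow, from C57BL/6 mice, bought as a culture and used after a few passages, and every group received 5 Gy of gamma radiation and was then kept with its gel for 48 h. The gel was alginate carrying RGD, a peptide to which integrins attach. Laponite is a synthetic clay of charged nanoplatelets, and in the Gel/Laponite@IL-12 group IL-12 had been mixed with the clay before the gel was formed. The Gel and Gel/IL-12 groups, 3 libraries each, had the same gel without Laponite and were used for comparison only. The irradiated cells without gel (IR-Con) varied more among themselves and were left out of the fit. The model is a single commercial cell culture with no blood cells added. The paper states in general terms that its data come from at least 3 distinct experiments unless it says otherwise. It does not say whether the 3 libraries of a group came from separate cultures, so the tests may reflect only technical variation between libraries.

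IL-12 is a cytokine of 2 chains that binds a receptor made of IL12RB1 and IL12RB2. In T and NK cells the receptor acts through the kinases JAK2 and TYK2 and the transcription factor STAT4, and interferon gamma is its best known product. Stromal cells of the marrow are better known as the source of chemokines, matrix and the factors that hold blood stem cells. They answer inflammatory cytokines with acute-phase proteins and chemokines, interferons with a large set of antiviral genes, and lack of oxygen with glycolytic genes under the transcription factor HIF-1.

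The changes were many and small. In the Gel/Laponite@IL-12 group 117 genes were higher (0.770% of those tested) and 146 were lower (0.961%), by edgeR's quasi-likelihood test with Benjamini-Hochberg adjustment. Only 34 of the 263 changed by 1.2-fold or more, and the median size of change among all 263 was 0.14 on the log2 scale. The 6 libraries held 15147272 to 17477185 counts each. Of the 263 genes, 253 had libraries that did not overlap between the groups, as did 15.3% of all genes tested. Genes named for the largest changes were chosen only among those without overlap, so their separation below is no further evidence. The count of 263 used the spread of the 12 gel libraries. It was 158 from the 6 libraries alone and 1 (Saa3) when the IR-Con libraries were added. Leaving out single libraries moved it to 140 (without Gel/Laponite replicate 1), 121 (without Gel/Laponite@IL-12 replicate 1) and 157 (without Gel/Laponite@IL-12 replicate 3).

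**Figure D1:**
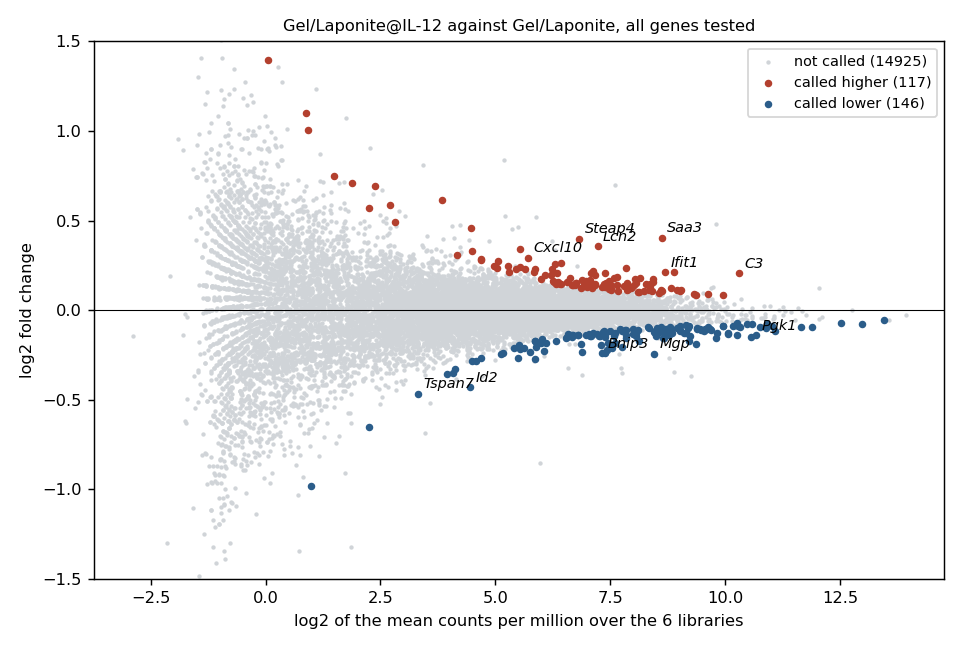
Log2 fold change of Gel/Laponite@IL-12 against Gel/Laponite (y axis) against the log2 of the mean CPM over the 6 libraries (x axis), 1 point per gene. The 117 genes called higher (red) and 146 called lower (blue) lie close to the grey cloud, and 13 genes, 1 of them called, fall outside the plotted range.

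The libraries carried the markers of the labelled cell type. Pdgfra, Cd44, Ly6a and the other mesenchymal markers were measured in every library, and the 10 together summed to 2158 to 2236 CPM (read counts scaled to a common library size) in Gel/Laponite and 2190 to 2240 CPM in Gel/Laponite@IL-12. Of these 10 only Pdgfra was called higher (log2 fold change 0.08, adjusted p = 0.041 by edgeR, and 0.13 with a trend in gene length and GC content removed from each library). None of 10 T and NK cell markers reached the level needed for testing, and their sum stayed between 0.25 and 0.62 CPM. Of 9 macrophage markers 4 were testable, Itgam had 0 counts in all 6 libraries, and the sum ran from 60.9 to 63.8 CPM in Gel/Laponite and from 61.3 to 67.4 CPM in Gel/Laponite@IL-12, most of it from Cd14. Lyz2, the lysozyme of macrophages, had 27, 32 and 48 counts in Gel/Laponite against 17, 18 and 15 with IL-12 (adjusted p = 0.067 by edgeR).

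Acute-phase genes had a higher median change than any other list of these inflammatory and interferon genes, and several chemokine genes rose as well. Of 25 acute-phase genes listed, 16 were testable, 6 rose (Saa3, Lcn2, Ptx3, Cp, Serpina3g and Steap4), none fell, and the median log2 fold change of the 16 was 0.16, beside a median of 0.00 over all genes tested. The 6 became 3 without Gel/Laponite replicate 1 and also without Gel/Laponite@IL-12 replicate 1. Of 20 chemokine genes 14 were testable, 4 rose (Ccl2, Ccl7, Cxcl1 and Cxcl5), 9 had a positive log2 fold change, and the median was 0.05. Of 14 testable complement genes C3 and C1ra rose. C1ra was not called with the length and GC trend removed (adjusted p = 0.080, edgeR) or without any one of the 3 Gel/Laponite@IL-12 libraries, and 50.8% of the 50-base windows of its transcripts occur in another gene. In bulk RNA a change cannot be told apart from a change in the share of cells that express the gene.

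Lcn2 encodes lipocalin-2, which binds the iron carriers of bacteria (chromosome 2, 32384633 to 32388252, minus strand, GRCm38). Its level was 132, 129 and 133 CPM in the 3 Gel/Laponite libraries and 167, 174 and 162 CPM in the 3 Gel/Laponite@IL-12 libraries. The groups were well separated, and the log2 fold change was 0.36 ± 0.04 (SE, adjusted p = 1.7e-12, edgeR).

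Saa3, a serum amyloid A gene that mouse stromal cells and macrophages make outside the liver, stood at 336, 336 and 344 CPM without IL-12 and at 448, 483 and 413 CPM with it. All 3 treated libraries were above all 3 controls, but they were spread more widely. The log2 fold change was 0.40 ± 0.06 (SE) with an adjusted p of 0.015 by edgeR, and the adjusted p reached 0.080 when single libraries were left out.

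Steap4 encodes a metalloreductase that supplies iron and copper and is induced by inflammation. It measured 92.6, 103 and 97.4 CPM in Gel/Laponite and 129, 130 and 128 CPM with IL-12, a rise of 0.40 ± 0.04 on the log2 scale (SE, adjusted p = 2.3e-09, edgeR). C3, the central protein of complement, was the most abundant of the group. It went from 1163, 1159 and 1169 CPM to 1340, 1339 and 1348 CPM, so that a log2 fold change of only 0.21 ± 0.02 (SE) had an adjusted p of 1.4e-12 by edgeR.

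Among the chemokines, Cxcl1 and Cxcl5 attract neutrophils and Ccl2 and Ccl7 attract monocytes. Cxcl1 was at 75.9, 80.9 and 78.9 CPM in Gel/Laponite and 95.8, 94.1 and 92.7 CPM in Gel/Laponite@IL-12 (log2 fold change 0.26, adjusted p = 1.1e-05, edgeR). Ccl7 was at 206, 216 and 210 CPM against 252, 254 and 238 CPM (0.24, adjusted p = 4.7e-08, edgeR). Neither gene had an overlapping library. Ccl2 (0.18) and Cxcl5 (0.20) rose as well, and all 4 chemokines remained called in each of the 12 fits that left out 1 gel library. Cxcl12, the chemokine that retains blood stem cells in the marrow, was at 979, 994 and 987 CPM against 1034, 988 and 1026 CPM, with overlapping libraries (adjusted p = 0.43, edgeR).

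Single further genes of inflammatory signalling rose. They were Ptx3, a pattern-recognition molecule of the pentraxin family (log2 fold change 0.21), and Cebpd, a C/EBP transcription factor of the acute-phase response (0.17). Junb (0.15), the phosphatase gene Dusp1 (0.15) and Il6st, the signalling chain shared by receptors of the IL-6 family (0.11), rose too. Il6st was the 1 gene called of 11 testable IL-6 family genes, and Junb and Dusp1 were the 2 called of 22 immediate early genes. Cebpd was the 1 called of 15 testable genes of adipocyte formation, in 8 of the 12 fits with a library left out. Of 18 testable Toll-like sensing genes edgeR called none, with 4 at an unadjusted p under 0.05. No gene of a list of 25 testable NF-kB targets and regulators passed edgeR's test, 4 had an unadjusted p under 0.05, and limma voom called 0. DESeq2 gave an adjusted p to only 10 of the 25, since its filter left 12073 of all 15188 genes without one, and called 0 of those 10. With the length and GC trend removed edgeR called 1 of the list higher.

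The sequences before the start of 3 of these genes are shown because the C/EBP family is a textbook regulator of acute-phase genes. The letters TTGCNNAA, searched on both strands of the 250 bases before each start, were found in 5 of the 6 acute-phase genes that rose and in 10.8% of 27025 genes in the promoter table. The last 150 bases before the start are printed 5′ to 3′ along the gene's strand (RefSeq, GRCm38.p6), with the matches in capitals. Steap4 and C3 carry the same 8 letters there.
Steap4, chr5:7960322-7960471, plus strand: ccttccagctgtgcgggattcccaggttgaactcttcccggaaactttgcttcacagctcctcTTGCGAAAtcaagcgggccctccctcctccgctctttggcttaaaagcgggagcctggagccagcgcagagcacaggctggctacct
C3, chr17:57228137-57228286, minus strand: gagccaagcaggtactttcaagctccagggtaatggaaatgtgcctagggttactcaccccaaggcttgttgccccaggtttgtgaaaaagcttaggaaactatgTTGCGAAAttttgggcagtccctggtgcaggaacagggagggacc
Ptx3, chr3:66219737-66219886, plus strand: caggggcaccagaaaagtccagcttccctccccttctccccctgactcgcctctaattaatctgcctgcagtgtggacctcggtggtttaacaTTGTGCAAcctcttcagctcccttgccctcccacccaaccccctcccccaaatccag

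Part of the interferon-induced genes rose, by small amounts. Of 24 genes induced by type I interferons, all testable, 10 rose and none fell, 23 had a positive log2 fold change, and the median was 0.12. Of 29 interferon gamma targets 22 were testable and 5 rose (Cxcl10, Gbp3, Gbp7, Irgm1 and Iigp1), with a median of 0.09. Of the 22, 17 had a positive log2 fold change. B2m, the light chain of MHC class I, was at 855, 864 and 838 CPM against 811, 829 and 801 CPM, without overlap (-0.07). It was not called by edgeR (adjusted p = 0.11, and 0.86 with the length and GC trend removed) but was called lower by DESeq2 (0.029) and limma voom (0.045). The 10 type I genes became 6 without replicate 1 of either Laponite group. The 5 interferon gamma targets became 2 without Gel/Laponite@IL-12 replicate 2, and 3 without Gel/Laponite replicate 1 or Gel/Laponite@IL-12 replicate 3.

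Cxcl10, a chemokine for activated T cells, changed most among the interferon gamma targets that were called. It was at 46.0, 48.2 and 47.6 CPM in Gel/Laponite and 55.3, 58.0 and 60.3 CPM in Gel/Laponite@IL-12, a log2 fold change of 0.29 ± 0.05 (SE, adjusted p = 0.00010, edgeR) with no overlap. Ifit1, which binds viral RNA that lacks the host's cap methylation, was at 385, 381 and 380 CPM against 438, 449 and 439 CPM. The 3 controls lay close together and below every treated library (log2 fold change 0.21 ± 0.03, SE, adjusted p = 4.1e-09, edgeR).

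Ifit3, 51.2% of whose 50-base windows occur in another gene, rose by 0.17, Rsad2, the antiviral enzyme viperin, by 0.18, Mx2 by 0.20 and Stat2, a subunit of the factor that carries the type I interferon signal, by 0.14 (log2). Mx1 was measured at 38.4, 35.8 and 38.6 CPM against 44.6, 43.5 and 41.0 CPM (adjusted p = 0.066, edgeR), and Isg15, the ubiquitin-like modifier, had a log2 difference of 0.13 with an adjusted p of 0.10 (edgeR). Outside the lists, and chosen after their values were seen, the antiviral genes Rnf213 (0.21), Adar (0.21), Parp14 (0.20), Trim25 (0.19) and Helz2 (0.18) rose. All of them stayed called in all 12 fits with a library left out. Rnf213 was the most abundant of these, at 425, 424 and 465 CPM against 517, 509 and 496 CPM.

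The interferon-stimulated response element was searched as GAAANNGAA on both strands of the same 250 bases. It was present in 5 of the 9 called type I genes that the promoter table holds and in 8.18% of all genes. All 4 of the called interferon gamma targets in the table had it. So did 5 of the 17 ribosomal protein genes called lower that the table holds. Ifit1 and Gbp7, a guanylate-binding protein of cell-autonomous defence, are shown since they held it close to the start. In Ifit1 there were 3 matches beginning 109, 103 and 84 bases before the start, the first 2 overlapping, and in Gbp7 1 match at 52.
Ifit1, chr19:34640739-34640888, plus strand: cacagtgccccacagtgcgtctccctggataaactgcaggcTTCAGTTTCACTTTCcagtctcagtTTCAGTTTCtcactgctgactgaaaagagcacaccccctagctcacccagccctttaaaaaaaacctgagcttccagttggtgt
Gbp7, chr3:142530186-142530335, plus strand: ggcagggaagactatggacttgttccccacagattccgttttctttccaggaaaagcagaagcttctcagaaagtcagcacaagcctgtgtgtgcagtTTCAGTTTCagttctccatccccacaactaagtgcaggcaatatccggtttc

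The receptor chains and Stat4 were scarce, and no gene of the IL-12 pathway passed the test. Il12rb1, the first receptor chain, had 71, 61 and 47 counts in Gel/Laponite and 45, 52 and 45 with IL-12 (adjusted p = 0.70, edgeR). Il12rb2, the second chain, had only 3 to 8 counts in any of the 6 libraries and was too low to test. Stat4, Ifng and Il12b had 0 counts in all 6, which allows at most 3 counts, or 0.172 to 0.197 CPM, in a library by counting error alone.

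The kinases were present, with Jak1 at 4053 to 4616 counts, Jak2 at 1270 to 1438 and Tyk2 at 464 to 586. Of 24 genes of the IL-12 axis 14 were testable and none was called by edgeR, none had an unadjusted p under 0.05, and limma voom called 0. DESeq2 gave an adjusted p to only 3 of the 14 and called 0 of them. Their median log2 fold change was -0.01. Stat3, a transcription factor of the IL-6 family signal, was at 285, 280 and 282 CPM against 297, 294 and 289 CPM (0.05, adjusted p = 0.46, edgeR).

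**Figure D2:**
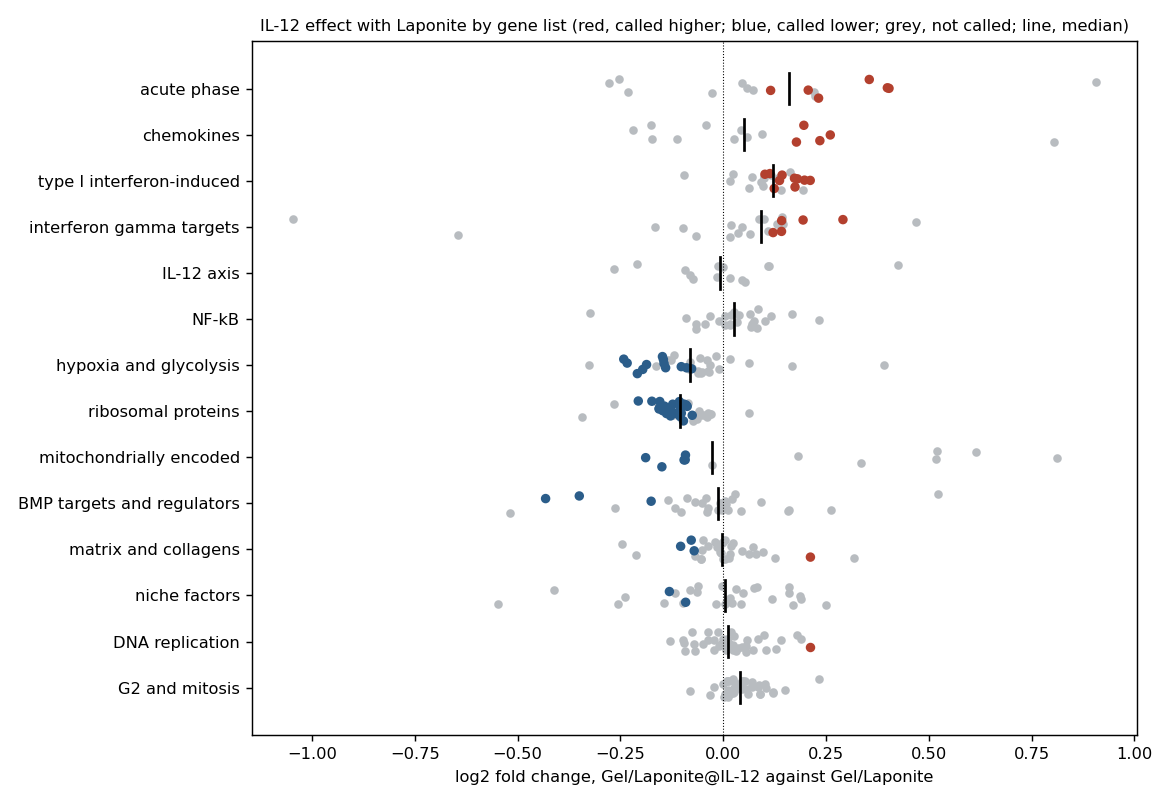
Log2 fold change of Gel/Laponite@IL-12 against Gel/Laponite (x axis) for each testable gene of 14 lists (rows), red where called higher, blue where called lower, grey where not called, with a black line at each list's median. The called genes of the acute-phase, chemokine and interferon rows are all higher, and those of the hypoxia, ribosomal and mitochondrial rows are all lower.

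Some genes of hypoxia and glycolysis fell with IL-12. Of 36 listed, all testable, 12 fell and none rose, 4 had a positive log2 fold change, and the median log2 fold change was -0.08. They covered glucose uptake (Slc2a1), glycolytic enzymes (Gpi1, Tpi1, Pgk1, Eno2, Ldha), the brake on pyruvate entry into mitochondria (Pdk1), mitochondrial turnover (Bnip3), Higd1a, the oxygen sensor Egln1, Ndrg1 and the disulfide-forming oxidase Ero1l. The count was 6 without Gel/Laponite@IL-12 replicate 1 and 7 without Gel/Laponite replicate 1.

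Bnip3 is a target of HIF-1 that marks mitochondria for removal (chromosome 7, 138890836 to 138909519, minus strand, GRCm38). It was at 173, 174 and 176 CPM in Gel/Laponite and at 143, 148 and 151 CPM in Gel/Laponite@IL-12, so the lowest control exceeded the highest treated library. The log2 fold change was -0.24 ± 0.03 (SE, adjusted p = 2.0e-07, edgeR). Of the 50-base windows of Bnip3 transcripts 47.2% also occur in another annotated gene, and for Pgk1 53.9%, so reads could have been divided between copies.

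Pgk1 was at 1721, 1723 and 1700 CPM against 1501, 1577 and 1591 CPM (-0.14 ± 0.02, SE, adjusted p = 3.9e-07, edgeR). Ndrg1 was at 226, 236 and 229 CPM against 194, 195 and 209 CPM, and Eno2 at 168, 174 and 166 CPM against 148, 148 and 148 CPM. No library of these genes overlapped between the groups, and both had a log2 fold change of about -0.2 (-0.21 and -0.20). Ero1l fell by 0.19, Egln1 by 0.15, Pdk1 by 0.15, Slc2a1 by 0.14 and Ldha by 0.08 on the log2 scale. Bhlhe40 and Ak4, which are induced by hypoxia but were not in the list and were chosen after their values were seen, fell by 0.22 and 0.21.

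The core of the hypoxia response element, ACGTG, lay within 250 bases before the start of 6 of the 11 fallen genes in the promoter table and of 18.5% of all genes. Bnip3 and Pgk1 are printed as examples of fallen genes that hold it. In Bnip3 the matches on both strands overlap in a palindrome. The same letters lay before 6 of the 17 fallen ribosomal protein genes in the table. A kappa B motif (GGNNNTTCC) and a STAT motif (TTCNNNGAA) were searched in the same way. They were found in 4 and 2 of the 6 acute-phase genes, against 17.6% and 8.13% of all genes. Of the 17 ribosomal protein genes 6 held the kappa B, 1 the STAT and 3 the C/EBP letters.
Bnip3, chr7:138909507-138909656, minus strand: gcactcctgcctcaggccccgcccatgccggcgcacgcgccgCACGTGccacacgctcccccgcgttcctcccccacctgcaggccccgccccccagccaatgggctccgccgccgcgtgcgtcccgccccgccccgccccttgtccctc
Pgk1, chrX:106186950-106187099, plus strand: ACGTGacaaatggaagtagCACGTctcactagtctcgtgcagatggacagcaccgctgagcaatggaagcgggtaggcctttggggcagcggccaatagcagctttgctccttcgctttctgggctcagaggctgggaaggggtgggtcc

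**Figure D3:**
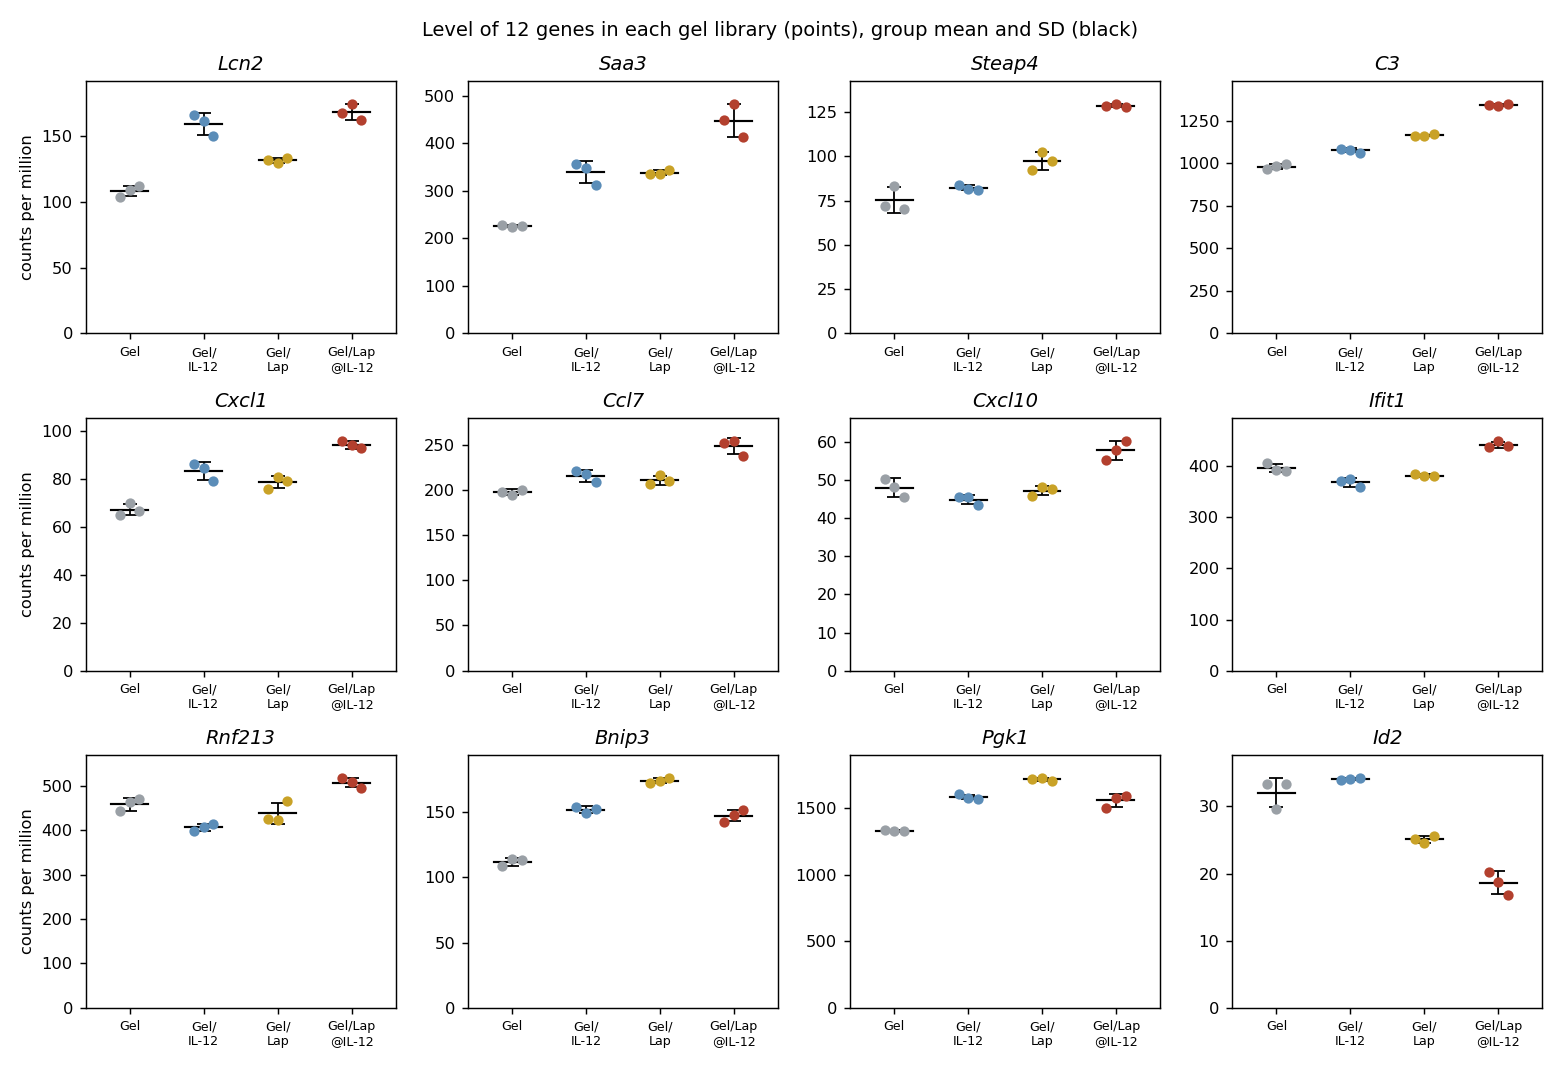
CPM, the counts scaled to a common library size (y axes, from 0) of 12 genes in the 12 gel libraries, grouped on the x axes as Gel, Gel/IL-12, Gel/Laponite (Gel/Lap) and Gel/Laponite@IL-12 (Gel/Lap@IL-12), with 3 points per group and the mean and SD in black. Bnip3 fell from 173 to 176 CPM in Gel/Laponite to 143 to 151 CPM with IL-12, whereas Gel/IL-12 lay above Gel.

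Ribosomal protein genes gave the longest run of calls in 1 direction. Of 40 listed 23 fell, none rose, 39 had a negative log2 fold change, and the median was -0.11. Counted by symbol, 37 of the 146 genes called lower encoded ribosomal proteins, of 90 such genes tested. The called members of the list changed by -0.21 to -0.08, and the count of 23 became 12 without Gel/Laponite@IL-12 replicate 1, 14 without Gel/Laponite replicate 1 and 15 without Gel/Laponite@IL-12 replicate 3.

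Rps21, of the small subunit, was at 183, 178 and 181 CPM in Gel/Laponite and at 152, 151 and 156 CPM in Gel/Laponite@IL-12 (-0.24 ± 0.03, SE, adjusted p = 2.0e-07, edgeR). Rplp1, of the large subunit's stalk, was at 968, 946 and 914 CPM against 847, 885 and 807 CPM. Neither gene had overlapping libraries, but 60% of the 50-base windows of Rplp1 are shared with another gene. Genes of this family are known for their many processed copies. Rpl38 fell by 0.23 and Rpl32 by 0.17 (log2).

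Of 13 protein-coding genes of the mitochondrial genome 5 fell, among them mt-Nd4 (1643, 1558 and 1554 CPM against 1452, 1411 and 1425 CPM), mt-Nd6 and mt-Cytb, subunits of respiratory complexes I and III. Of the 50-base windows of mt-Nd4 62.2% occur in another annotated gene. The other 8 did not pass the test. Lower genes were short and higher genes long. The median exonic length was 2434.5 bases for the 146 genes called lower, 5754 for the 117 called higher and 3974 for all tested. Over the 8 length bins the median log2 fold change went from -0.04 for the shortest to 0.02 for the longest. For each library, log2 deviations from the gene means over the gel libraries were correlated with log2 exonic length. The correlation was -0.19, -0.02 and 0.01 in Gel/Laponite and -0.03 to 0.11 in Gel/Laponite@IL-12, overlapping ranges.

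With the trend in exonic length and GC content removed from each library, an alternative chosen after the data were seen, 229 genes were called. Of the ribosomal list 21 were called lower, of the hypoxia list 13 were called lower, of the type I interferon list 13 were called higher and of the acute-phase list 6 were called higher. None of the 5 mitochondrial genes was called then, with adjusted p of 0.21 for mt-Nd4 and 0.56 for mt-Nd6 (edgeR), and the list's median turned to 0.03.

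**Figure D4:**
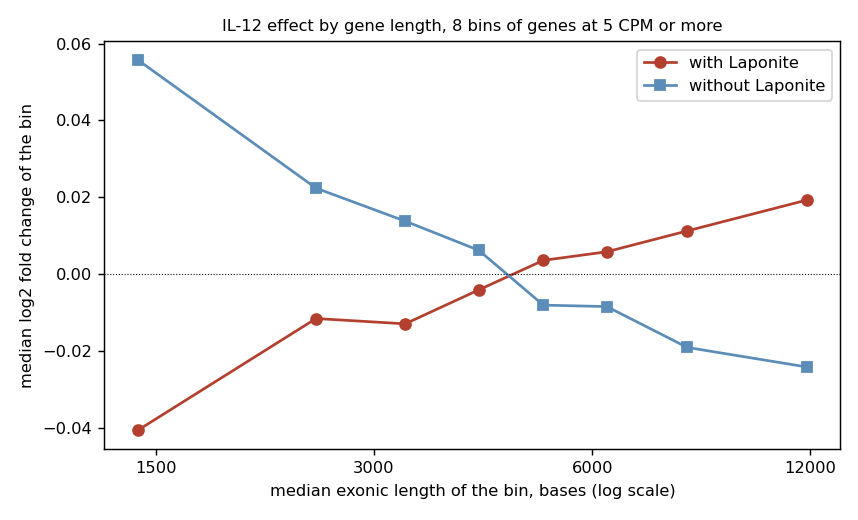
Median log2 fold change (y axis) of genes at 5 CPM or more in 8 bins of exonic length (x axis, log scale), for IL-12 with Laponite (red circles) and without Laponite (blue squares). With Laponite the medians run from -0.04 in the shortest bin to 0.02 in the longest, and without Laponite from 0.06 to -0.02.

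The Id genes fell. They encode proteins that block helix-loop-helix transcription factors and are the standard early targets of BMP signalling. Id2 (chromosome 12, 25093799 to 25097140, minus strand, GRCm38) was at 25.2, 24.5 and 25.6 CPM in Gel/Laponite and 20.3, 18.7 and 16.8 CPM in Gel/Laponite@IL-12, well apart, with a log2 fold change of -0.43 ± 0.08 (SE, adjusted p = 7.6e-05, edgeR). Id1 was at 18.8, 18.5 and 19.5 CPM against 14.7, 14.4 and 15.4 CPM (-0.35, adjusted p = 0.0087, edgeR), and Id3 at 81.5, 85.9 and 85.1 CPM against 73.8, 75.9 and 74.0 CPM (-0.18, adjusted p = 0.0044, edgeR). They were the only 3 of 29 testable BMP targets and regulators called by edgeR (DESeq2 called 1 of the 7 to which it gave an adjusted p), and the median of the 29 was -0.01.

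Matrix genes changed in both directions. Mgp, an inhibitor of calcification, fell from 387, 377 and 380 CPM to 300.2, 332 and 333 CPM (-0.24 ± 0.03, SE, adjusted p = 2.3e-07, edgeR). Col1a2, a chain of type I collagen, fell from 8340, 8403 and 8208 CPM to 7856, 7873 and 7915 CPM. No libraries overlapped, although the log2 fold change was only -0.08 (adjusted p = 0.00013, edgeR). Of 32 testable matrix genes 3 fell and 1 rose (Col5a3, 0.21), and with the length and GC trend removed 6 fell and 2 rose. Adamts5, a protease of aggrecan, rose by 0.15. Spon2, a matrix protein, fell by 0.24, Ogn, osteoglycin, by 0.09, Lox, which crosslinks collagen, by 0.07 and Ctgf by 0.14. Acta2, smooth muscle actin, fell by 0.08 on the log2 scale. With the length and GC trend removed Ogn (adjusted p = 0.36) and Acta2 (0.11) were no longer called by edgeR. Spon2 was called in 6 of the 12 fits with a library left out.

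The largest single changes at 5 CPM or more lay partly outside these groups. Slc6a9, the glycine transporter GlyT1, rose from 41.1, 40.6 and 40.8 CPM to 51.2, 51.7 and 52.1 CPM (0.34, adjusted p = 1.7e-05, edgeR). The treated libraries were the 3 highest, which the rule for naming it required. Hspa4l, a chaperone of the Hsp110 family, rose by 0.26, Rspo2, which strengthens Wnt signalling, by 0.24, Tent5a, a poly(A) polymerase active in osteoblasts, by 0.29, Mfsd4a by 0.31 and Stk19 by 0.28. Mfsd4a was called in 4 of the 12 fits with a library left out and not with the length and GC trend removed (adjusted p = 0.076, edgeR). Tent5a and Stk19 were each called in 8 of the 12 fits.

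Tspan7, a tetraspanin, had the largest fall, from 11.8, 11.0 and 11.8 CPM to 9.41, 7.98 and 7.67 CPM (-0.47 ± 0.11, SE, adjusted p = 0.010, edgeR). Nrn1, neuritin, was at 65.1, 66.1 and 59.7 CPM against 52.3, 51.7 and 53.9 CPM (-0.27). Both genes had 3 treated libraries below every control, which the rule for naming them required. Gcnt1, a glycosyltransferase, fell by 0.36, Bok, of the BCL2 family, by 0.33, Romo1 by 0.29 and St7 by 0.28. Pdp1, a phosphatase that activates pyruvate dehydrogenase, fell by 0.27, Srprb by 0.24 and Dlk1, an inhibitor of adipocyte formation, by 0.18. With the length and GC trend removed Bok (adjusted p = 0.054) and Romo1 (0.072) were no longer called by edgeR. Of the 12 fits with a library left out, Romo1 was called in 4, Srprb in 7, and Gcnt1, Bok and St7 in 8 each.

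Pseudogenes and predicted genes ranked high by size. Oaz1-ps (0.70), Ppp1ccb (0.61), Gm10036 (0.59), Gm14066 (0.49), Gm7901 (0.33) and Gm11847 (0.27) were among the 15 largest rises. Gm14066 shares none of its 50-base windows, but it was called in only 6 of the 12 fits with a library left out. From the 6 libraries alone its adjusted p was 0.054 (edgeR). The others are uncertain, since most of their 50-base windows occur in another annotated gene. The shares were 92.1% for Oaz1-ps, 97.6% for Ppp1ccb, 94.6% for Gm11847, 77.6% for Gm7901 and 66.8% for Gm10036.

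Other functions known for these cells had few calls. Over all genes tested 1.73% were called, and at that share lists of this length would hold few as well. The low counts therefore do not show that these functions were spared. Of 32 testable PI3K/AKT genes 1 rose and none fell. This was Tsc2, a brake on growth signalling (0.14, adjusted p = 0.026, edgeR), which was not called with the length and GC trend removed (0.11) and was called in 8 of the 12 fits with a library left out. Of 40 genes of DNA replication 1 rose, Pole, the catalytic subunit of a replicative polymerase, at 37.8, 36.8 and 34.7 CPM against 43.4, 43.7 and 39.6 CPM (adjusted p = 0.035, edgeR). It was not called with the length and GC trend removed (adjusted p = 0.10, edgeR). None of 40 genes of G2 and mitosis and none of 28 p53 targets was called by edgeR, with 7 and 1 at an unadjusted p under 0.05 and 0 by limma voom. DESeq2 gave an adjusted p to only 10 and 2 of them and called 0.

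Of 29 testable niche factors 2 fell, Ogn and Nov. Nov was near the threshold (adjusted p = 0.048 by edgeR, 0.064 by limma voom, 0.051 with a replicate block), and was called in 2 of the 12 fits with a library left out. With the length and GC trend removed neither fell and 1 other niche factor rose. Of 18 osteogenic genes 1 fell, Col1a2, and with the trend removed 2 fell and 1 rose. Of 28 testable genes for which the study designed PCR primers none was called by edgeR, 8 had an unadjusted p under 0.05, limma voom called 0, and the median log2 fold change was -0.02. DESeq2 gave an adjusted p to only 8 of them and called 0, and with the length and GC trend removed 1 was called lower.

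IL-12 in the gel without Laponite was compared in the same fit, using Gel/IL-12 and Gel, which share no library with the groups above. There 200 genes rose (1.32%) and 74 fell (0.487%). Of the 16 acute-phase genes 5 rose, with a median of 0.15. Saa3, Lcn2 and Ptx3 were called in both comparisons. Steap4 (adjusted p = 0.16), Serpina3g (0.30) and Cp (0.0505) were not called by edgeR without Laponite. Cp nevertheless changed by 0.12 with Laponite and 0.11 without. Its difference, tested directly as described below, was not called (adjusted p = 0.96, edgeR), nor was that of Serpina3g (0.62). Of the 14 chemokines 8 rose. This count was 3 with the length and GC trend removed and fell to as few as 4 when single libraries were left out (without Gel/IL-12 replicate 1 or 2), with 5 without Gel replicate 3. Lcn2 went from a mean of 108 to 159 CPM (0.56, adjusted p = 9.5e-23, edgeR) and Saa3 from 226 to 340 CPM (0.59, adjusted p = 0.0018, edgeR).

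For the other large groups the called genes went the opposite way without Laponite. Of the 24 type I interferon-induced genes 7 fell (4 without Gel replicate 1 or Gel/IL-12 replicate 3), none rose, and the median was -0.10. Of the 36 hypoxia and glycolysis genes 20 rose, none fell, and the median was 0.16. Of the 40 ribosomal protein genes 29 rose (19 with the length and GC trend removed) and none fell, with a median of 0.13. Bnip3 went from a mean of 112 CPM in Gel to 152 CPM in Gel/IL-12 (0.44, adjusted p = 2.8e-18, edgeR), and Ifit1 from 397 to 369 CPM (-0.11, adjusted p = 0.0088, edgeR).

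The difference between the 2 IL-12 effects was tested directly, as the effect with Laponite minus the effect without. It was positive and called for 214 genes (1.41%) and negative and called for 348 (2.29%). It uses the same libraries as the other comparisons and so repeats part of their information. It was positive for 14 and negative for 0 of the type I interferon-induced genes, negative for 21 and positive for 0 of the hypoxia and glycolysis genes, and negative for 34 and positive for 0 of the ribosomal protein genes.

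Single genes followed. The difference was -0.68 for Bnip3 (adjusted p = 9.4e-21), 0.32 for Ifit1 (1.8e-10) and -0.52 for Id2 (0.00020, edgeR). Among the acute-phase genes it was called for 2, and in opposite directions. For Steap4 the effect was larger with Laponite (difference 0.27, adjusted p = 0.0036, edgeR) and for Lcn2 it was smaller (-0.20, adjusted p = 0.0070, edgeR). For Saa3 (-0.18), C3 (0.07), Cxcl1 (-0.05) and Ccl2 (0.03) it did not pass the test.

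The length pattern was reversed without Laponite as well, from 0.06 for the shortest bin to -0.02 for the longest. The correlation of a library's deviations from the gene means with length was 0.10 to 0.12 in Gel and -0.15 to -0.02 in Gel/IL-12. With the length and GC trend removed the difference was called for 314 genes. It was then called for 17 type I interferon-induced genes (positive), 23 hypoxia and glycolysis genes and 27 ribosomal protein genes (negative), while of the mitochondrially encoded genes, 7 of which were called as negative before, none was negative and 1 was positive by edgeR, and their median turned from -0.15 to 0.03.

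**Figure D5:**
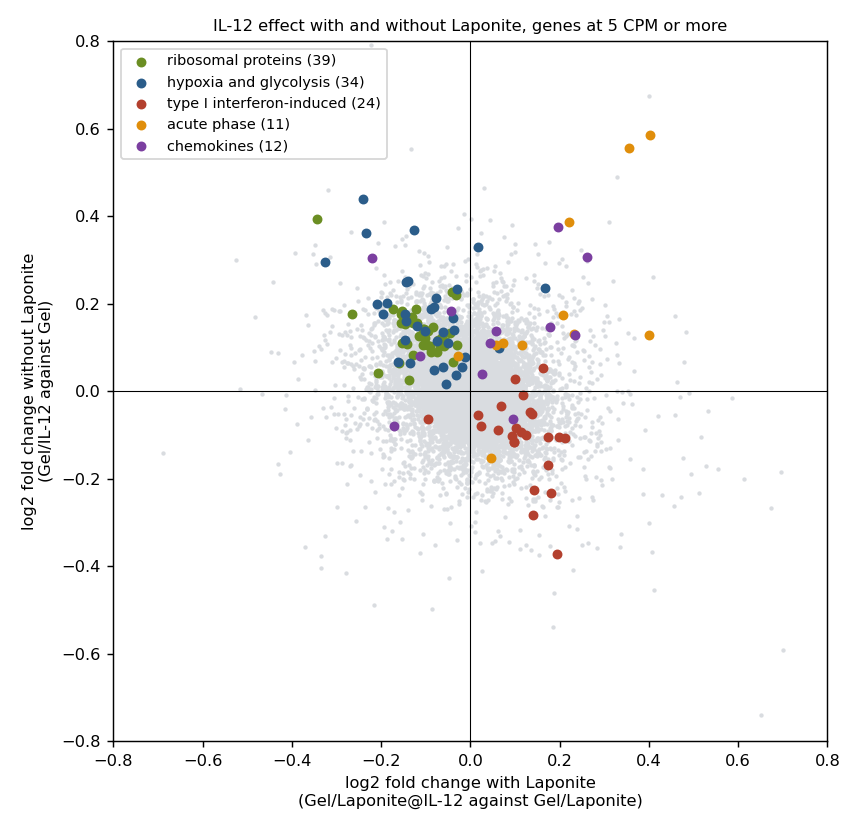
Log2 fold change of each gene at 5 CPM or more with Laponite (x axis) against that without Laponite (y axis), with 5 gene lists in colour, and 8 of 10868 genes outside the plotted range. Hypoxia, glycolysis and ribosomal genes lie mostly at the upper left, type I interferon-induced genes at the lower right and most acute-phase genes at the upper right.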

How the data were processed

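RNA-seq measured 5 groups of 3 BM-MSC libraries. Values used here were the raw counts that the authors deposited for each gene, and the submitters' processing notes name the mouse build mm10. The aligner, the counter and strand use are not given in the sources used here. The deposited table also held 15 per-sample FPKM columns, 20 group means and 30 columns of the authors' own comparisons (fold changes and p-values), which were not used. From the 54532 genes, those passing edgeR's filter (at least 10 counts) were kept, leaving 15188. Counts were scaled by TMM and fitted with edgeR 4.0.16 (robust quasi-likelihood, R 4.3.3) over the 12 gel libraries with 1 mean per group, giving 8 residual degrees of freedom. CPM are counts divided by the TMM-scaled library size and brought to a common scale, and p-values were adjusted over all genes tested at 0.05.

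Alternatives were DESeq2 1.42.0, limma voom 3.58.1, other scalings, filters and library sets, and a length and GC correction added after the data were seen. Only the main edgeR fit was tested on simulated data. Gene positions came from GENCODE M21 (GRCm38) by gene ID, and 67 of the 99 genes named in the text had a RefSeq promoter.

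The members and gene lists were chosen with earlier results of these data known. Genes named were the 15 highest and 15 lowest called at 5 CPM or more with no overlap, up to 5 of each list, the IL-12 and interferon gamma lists, and the primer genes, apart from 3 that are not reported here. Further called list members, Pdgfra, Mx1, Mx2, Hspa4l, Rspo2, Dlk1, Bhlhe40, Ak4, Rnf213, Adar, Parp14, Trim25 and Helz2 were chosen after their values were seen. Limits on low counts cover counting error only.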

Additional observations from a re-analysis of the deposited data

Results flagged for a closer look

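The IL-12 effect differed with and without Laponite, by the test of the difference itself (edgeR, adjusted p under 0.05), for 562 genes, 65 of them named above. In 60 of the 65 the fitted effects had opposite directions and in 5 the same one. Most of the 65 were named for a call with Laponite, and keeping those with a called difference favours opposite directions. Values are the log2 fold change with Laponite minus that without. No explanation was tested.

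Among inflammatory genes the difference was -0.20 for Lcn2, 0.27 for Steap4 and 0.20 for Dusp1. For interferon-induced genes it was 0.39 for Cxcl10, 0.20 for Gbp3, 0.27 for Gbp7, 0.26 for Irgm1, 0.31 for Iigp1, 0.32 for Ifit1, 0.22 for Ifit2, 0.34 for Ifit3, 0.41 for Rsad2, 0.57 for Mx1, 0.30 for Mx2, 0.21 for Oasl2, 0.19 for Stat2, 0.38 for Rnf213, 0.35 for Adar, 0.38 for Parp14, 0.26 for Trim25, 0.31 for Helz2 and -0.12 for B2m.

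For hypoxia-related genes it was -0.68 for Bnip3, -0.60 for Higd1a, -0.39 for Pgk1, -0.41 for Ndrg1, -0.37 for Eno2, -0.39 for Ero1l, -0.29 for Ldha, -0.31 for Slc2a1, -0.39 for Pdk1, -0.32 for Egln1, -0.49 for Ak4, -0.37 for Bhlhe40, -0.24 for Gpi1 and -0.28 for Tpi1. For ribosomal and mitochondrial genes it was -0.43 for Rps21, -0.35 for Rpl38, -0.31 for Rplp1, -0.36 for Rpl32, -0.26 for mt-Nd4, -0.35 for mt-Nd6 and -0.17 for mt-Cytb.

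For the Id and matrix genes it was -0.44 for Id1, -0.52 for Id2, -0.26 for Id3, -0.23 for Mgp, -0.38 for Spon2, -0.073 for Col1a2, -0.11 for Lox and -0.28 for Ctgf. For the rest it was -0.34 for Nrn1, -0.14 for Dlk1, 0.34 for Slc6a9, 0.40 for Hspa4l, 0.27 for Rspo2, 0.35 for Tent5a, 0.38 for Stk19, -0.46 for Bok, -0.42 for Romo1, 0.88 for Oaz1-ps, 0.81 for Ppp1ccb, 0.29 for Pole, 0.17 for Tsc2 and 0.15 for Pdgfra.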

How the results depend on the processing

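With Laponite the 263 genes called by edgeR became 158 from the 6 libraries alone and 1 when all 15 libraries shared the spread, and 121 to 344 when single gel libraries were left out. Without Laponite 274 became 174 without robust estimation, 155 with the length and GC trend removed, 433 from the 6 libraries alone, 2 with all 15 and 135 to 296 with a library left out. For the difference 562 became 314 with the trend removed, 0 with all 15 by edgeR (631 at an unadjusted p under 0.05) and 375 to 666 with a library left out. All other settings stayed within 1.5 times. The direction of all 91 called genes named in the text held under every setting run, and 52 of them lost the call in at least 1 fit without a library. DESeq2 gave no adjusted p to 30 of the 91 and called the others. Same-numbered libraries of the 2 Laponite groups did not deviate together (correlations -0.08 to 0.03, and -0.11 to 0.09 for different numbers). So few libraries cannot show whether the numbers pair samples. A replicate block gave 265, 269 and 561 genes.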
